A study of Rattus norvegicus with 96 samples.

Results

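Blood RNA of 8 rats that had inhaled crystalline silica at 2 mg/m3 was compared directly with that of 8 rats that had inhaled it at 1 mg/m3. These 16 arrays, chosen by their titles, are part of a series of 96. They were male CDF Fisher 344 rats, 3 months old, that breathed silica for 6 hours a day on 5 days and were killed 16 hours after the last exposure, called week 0 in the labels. Each dose had its own set, with 4 rats that breathed air for the same days, and these 8 air rats serve below to show how the sets differed without silica. RNA was isolated from blood, depleted of globin mRNA and measured on Illumina rat BeadChips, with 1 array for each rat. The study also exposed rats to 15 mg/m3, from which 8 silica and 4 air rats of week 0 are compared once below. All 96 arrays of the series were normalized together. They also set the filter on dim probes and the estimate of each gene's spread in every comparison.

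Inhaled crystalline silica is taken up by alveolar macrophages, whose injury releases cytokines such as interleukin-1 and draws neutrophils into the lung. Long exposure leads to silicosis, a fibrotic lung disease. Whole blood mixes the RNA of neutrophils, lymphocytes, monocytes, platelets and young red cells, so a difference between blood samples can be a difference in cell make-up as well as in expression.

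The arrays of the 24 low-dose rats detected between 8980 and 9941 of 21792 probe rows at a detection p under 0.05. The 2 mg silica rats detected 9559.5 ± 282 rows (SD, n = 8) and the 1 mg rats 9648 ± 323 (SD, n = 8), a difference of -88.5 that did not pass a 2-sided exact permutation test (p = 0.563). Median probe intensity differed by -1.25 units (exact permutation p = 0.882, 2-sided). Defining genes of blood were detected on all 16 silica arrays, among them 17 of 18 measured erythroid genes, 18 of 19 T-cell genes and 16 of 21 neutrophil genes. Within groups, arrays correlated between 0.985 and 0.997. No label names a chip, and 12 columns that follow each other in the deposited table were taken as a run in its place. Runs 5, 6, 7 and 8 each held 2 silica rats of either dose and 1 air rat of either set, so the run and the dose are balanced.

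Transcripts of the liver stood out in some of the samples. A list of 30 genes of hepatocytes, the liver cells that make most plasma proteins, was written after this was seen, and 24 of them were measured. Alb, serum albumin, was at 9.97, 5.98, 6.67, 8.03, 5.23, 4.85, 4.98 and 8.40 in 1 mg rats 1 to 8, and at 4.73 to 5.60 in the 2 mg rats. In the air rats it was 4.93, 10.19, 4.95 and 6.23 for the 1 mg set and 4.99, 9.15, 5.00 and 4.85 for the 2 mg set. The mean of the list was above 6.5 on 5 arrays, those of 1 mg rats 1, 4 and 8 and of air rat 2 in either set, on each of which all 24 genes were detected. It was 5.40 to 5.94 in the 2 mg rats, so that the high arrays lay in the 1 mg group and in both air groups. Of the 24 genes 22 lay below 0 in the direct comparison, with a median of -0.96, and none passed (Alb -1.82 ± 0.66, adjusted p = 0.156). Where these RNAs came from was not tested. The main results are given with and without these 5 arrays, called below the 5 arrays with liver transcripts. Other arrays that were kept also detected these genes. Of the 24, 20 were detected in 1 mg rats 2 and 3 and in air rat 4 of the 1 mg set. In 1 mg rat 5 and 2 mg rat 8 it was 18. Leaving out the 5 arrays therefore did not remove all liver-gene signal.

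The direct comparison asked which genes differ in blood between the doses. Of 12306 genes tested, 159 passed at an adjusted p under 0.05 (1.29%), 71 higher in the 2 mg rats (0.577%) and 88 lower (0.715%). Without the 5 arrays with liver transcripts 66 genes passed, 28 higher and 38 lower, 56 of them among the 159, and with the liver-gene mean as a covariate 43 passed, all among the 159. The differences were small, with a median size of 0.33 on the log2 scale, or 1.26-fold, and a range from 0.17 to 1.45. Across all genes 1580 had an unadjusted p under 0.05, where 615.3 are expected by chance. The 8 values of one dose did not overlap the 8 of the other in 30 genes (0.244%), 15 of which were among the 159. Levels below are log2 normalized intensities. A difference is followed by its standard error (SE) from limma, whose p-values were adjusted by the Benjamini-Hochberg method over all genes. The dose and the exposure set cannot be told apart in this comparison, because each dose was given to its own set of rats.

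The largest rise that passed belonged to LOC503325, an unnamed locus of the array design. Its level was 10.86, 11.47 and 11.88 (lowest, median and highest) in the 2 mg rats and 9.18, 10.08 and 11.21 in the 1 mg rats. Most 2 mg rats lay above every 1 mg rat, and the groups overlapped through 1 mg rat 8 at 11.21. The difference was 1.26 ± 0.22, or 2.39-fold (adjusted p = 0.000486). The air rats of the 2 mg set, at 11.46, 11.16, 11.43 and 11.64, also lay above those of the 1 mg set, at 9.91, 9.82, 9.86 and 10.02. These air groups did not overlap, and they differed by 1.52 ± 0.31 (adjusted p = 0.0192). LOC502137, another unnamed locus, showed the same arrangement near the lower end of the intensity scale. It stood at 5.70, 6.24 and 6.73 in the 2 mg rats and at 5.01, 5.35 and 5.86 in the 1 mg rats, a difference of 0.84 ± 0.13 (adjusted p = 0.000126), and differed by 0.86 ± 0.19 between the air groups (adjusted p = 0.0213).

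Mmp8, Il1rn and Cd226 followed among the rises. Mmp8, the collagenase stored in neutrophil granules, stood at 9.16, 9.79 and 10.34 in the 2 mg rats and at 8.89, 9.17 and 9.43 in the 1 mg rats. The overlap came from 2 mg rat 8, at 9.16. Mmp8 rose by 0.66 ± 0.12, or 1.58-fold (adjusted p = 0.000486), and its air difference was 0.37 ± 0.16 (adjusted p = 0.451). Il1rn, the antagonist that blocks the interleukin-1 receptor, was 8.17, 8.67 and 9.19 in the 2 mg rats against 7.77, 8.07 and 8.24 in the 1 mg rats. It rose by 0.60 ± 0.13 (adjusted p = 0.00826), with a slight overlap of the doses. Its level in the air rats was 8.15, 8.37, 8.35 and 8.28 for the 2 mg set and 8.09, 7.10, 7.85 and 7.65 for the 1 mg set, so here too the air groups were apart, by 0.62 ± 0.19 (adjusted p = 0.148). Cd226, an adhesion receptor of T cells, NK cells and platelets, was 7.79, 8.23 and 8.59 in the 2 mg rats and 7.35, 7.54 and 7.79 in the 1 mg rats. The groups met at 7.79 without overlapping, and the difference was 0.65 ± 0.14 (adjusted p = 0.00780). Its air values scattered more widely, from 7.06 to 8.60 in the 2 mg set and from 6.79 to 7.93 in the 1 mg set.

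The remaining large rises were of genes with varied roles. Tfrc, the transferrin receptor through which red-cell precursors take up iron, rose by 0.55 ± 0.14 (adjusted p = 0.0297). Gstm5, a glutathione transferase, rose by 0.47 ± 0.12 (adjusted p = 0.0297) and Clic4, a chloride intracellular channel protein, by 0.62 ± 0.14 (adjusted p = 0.0106). Tmem33, a membrane protein of the endoplasmic reticulum, was 8.22, 8.45 and 8.56 in the 2 mg rats and 7.65, 8.01 and 8.04 in the 1 mg rats. The doses did not overlap for Tmem33, which rose by 0.48 ± 0.10 (adjusted p = 0.00410) and differed by 0.60 ± 0.14 between the air groups (adjusted p = 0.0449). Svip, an inhibitor of protein degradation at the endoplasmic reticulum, rose by 0.49 ± 0.11 (adjusted p = 0.00855) and Fbln1, a matrix glycoprotein, by 0.49 ± 0.12 (adjusted p = 0.0219). Higd2a, an assembly factor of the respiratory chain, rose by 0.59 ± 0.12 (adjusted p = 0.00374). Its 2 probe rows disagreed, the dimmer one differing by 0.0072.

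**Figure D1:**
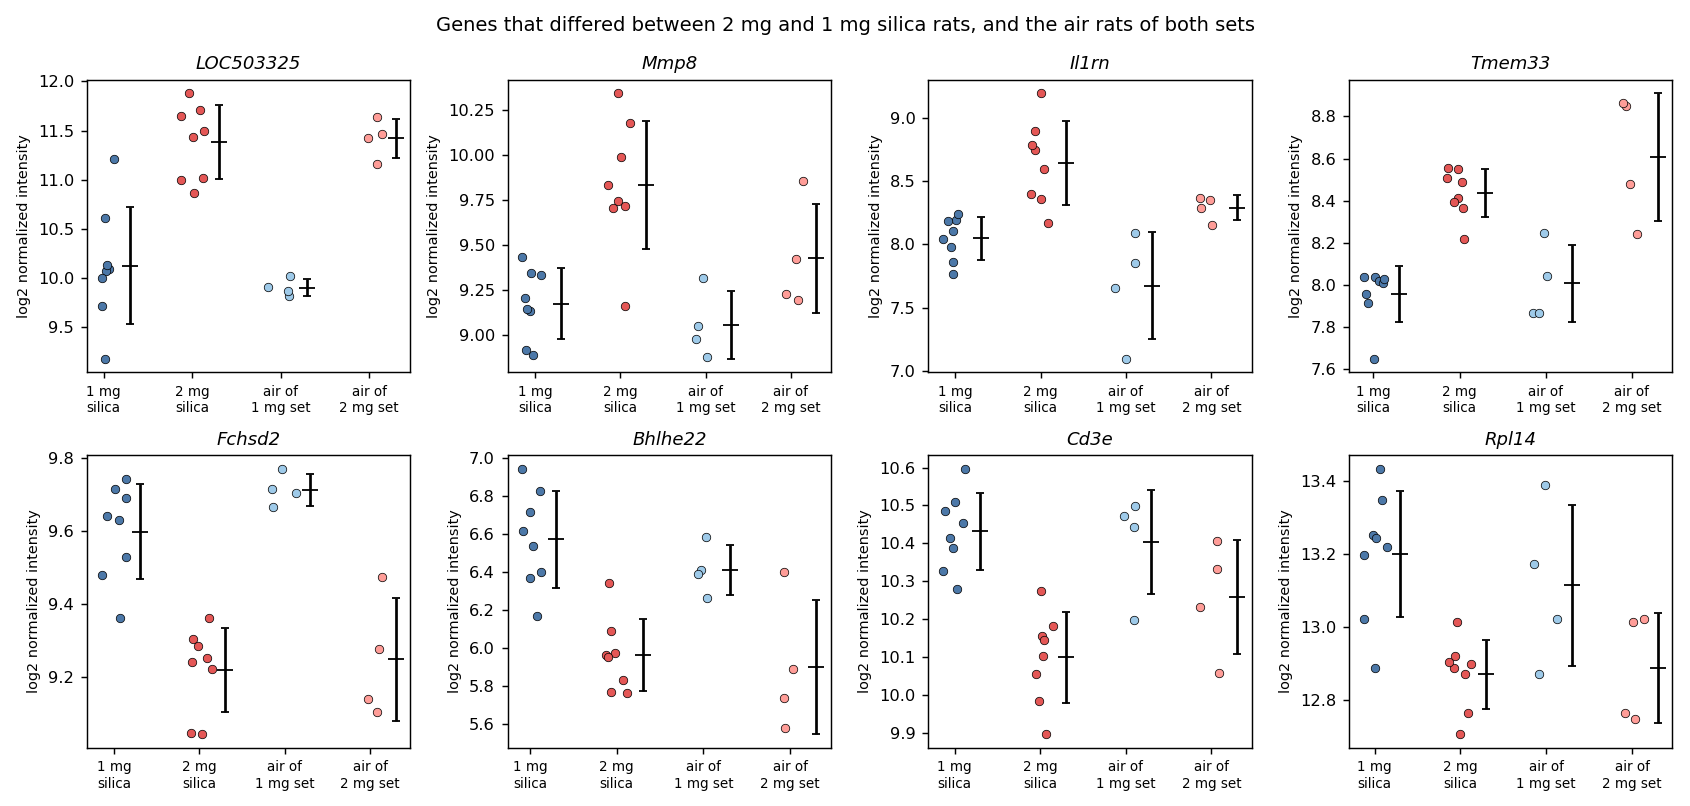
Levels of 8 genes in each rat (points; log2 normalized intensity on the vertical axes, which do not start at 0) for 1 mg silica, 2 mg silica and the air rats of either set; the bar beside each group is the mean ± SD (n = 8 silica rats, n = 4 air rats). For LOC503325 the air rats stand at 9.82 to 10.02 and at 11.16 to 11.64, apart in the same direction as the silica rats.

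The largest falls were likewise of genes with varied roles, and that of a mast-cell gene is described separately below. Bhlhe22, a basic helix-loop-helix transcription factor, was 5.76, 5.96 and 6.34 in the 2 mg rats and 6.17, 6.57 and 6.94 in the 1 mg rats. It fell by 0.61 ± 0.12 (adjusted p = 0.00374), with slight overlap, and its air difference was -0.51 ± 0.17 (adjusted p = 0.233). Zranb2 and Sfpq, which both act in RNA splicing, fell by 0.50 ± 0.12 (adjusted p = 0.0153) and 0.39 ± 0.11 (adjusted p = 0.0470). Chchd10, a protein of the mitochondrial intermembrane space, fell by 0.41 ± 0.09 (adjusted p = 0.00410). Fchsd2, an F-BAR protein of endocytosis, had the lowest adjusted p among the falls. It was 9.04, 9.25 and 9.36 in the 2 mg rats and 9.36, 9.64 and 9.74 in the 1 mg rats, so that the groups met at a single value, and it fell by 0.38 ± 0.07 (adjusted p = 0.000486). The air rats were at 9.11 to 9.48 in the 2 mg set and 9.67 to 9.77 in the 1 mg set, a difference of -0.46 ± 0.09 (adjusted p = 0.0192).

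The other 6 of the 12 largest falls lay close together, between -0.41 and -0.38. They were Enpp2, the secreted enzyme autotaxin that makes lysophosphatidic acid, Trio, a guanine nucleotide exchange factor, Prr7, a transmembrane adaptor, the unnamed LOC499369, Ier2, an immediate early gene, and Brms1, a subunit of histone deacetylase complexes. Trio had the lowest adjusted p of these (-0.39 ± 0.08, adjusted p = 0.00213), and its air difference was -0.40 ± 0.11. Brms1 differed from Trio in the air rats. It fell by 0.38 ± 0.09 between the doses (adjusted p = 0.0201), with an air difference of 0.00 ± 0.13. For Enpp2 the air rats disagreed between the column runs, with differences of -0.761, -0.082, -0.100 and 0.419 in runs 5, 6, 7 and 8.

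The air rats, which had inhaled no silica, were then set against each other across the sets. Between them 14 genes passed (0.114%), 10 higher (0.0813%) and 4 lower (0.0325%) in the 2 mg set, and 10 of the 14 were among the 159 genes of the direct comparison. These included LOC503325, LOC502137, Higd2a, Tmem33 and Fchsd2. In direction, 157 of the 159 genes (98.7%) differed the same way between the air groups as between the doses, against 66.5% of all genes. The median difference of the 159 genes, counted in their direct direction, was 0.33 between the doses and 0.28 between the air groups. The air difference was at least as large as the direct one for 57 of them (35.8%), close to the 39.4% of all genes, and under 0.1 in that direction for 16 (10.1%, against 67.4% of all genes, whose direct differences were smaller). Over all 12306 genes the silica difference and the air difference correlated at Pearson's r = 0.55 and Spearman's rho = 0.52. This is a description across genes of 24 arrays that were normalized together. The silica and air arrays compared are separate, but they share the sets and the column runs. Without the 5 arrays with liver transcripts the genes that passed, 66 in number, had the same sign in the air rats in 66 cases, and r was 0.56. Per run, Pearson's r was 0.57, 0.22, 0.29 and 0.17. All 4 runs gave the same direction in the air rats, with 1 air rat of each set per run, for 98 of the 159 genes (61.6%, against 17% of all genes).

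**Figure D2:**
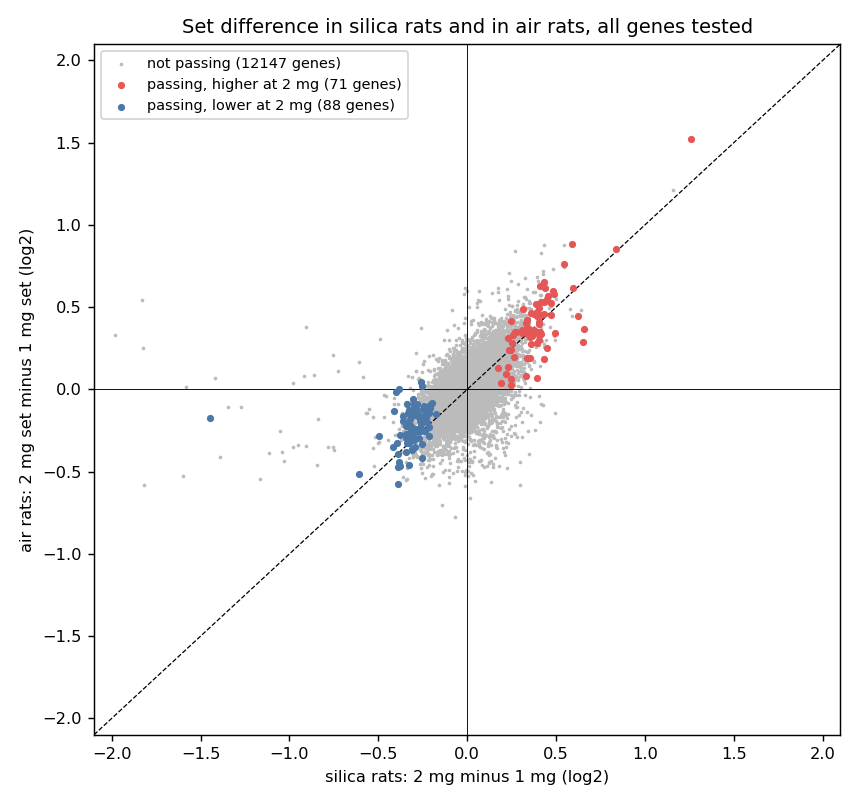
Difference between the silica rats (2 mg minus 1 mg, log2, horizontal axis) against the difference between the air rats of the same sets (log2, vertical axis), 1 point per gene for all 12306 genes; the dashed line marks equal differences. The 71 higher and 88 lower genes lie almost wholly in the upper right and lower left, with 2 of the 159 on opposite sides of 0. Grey points far to the left include genes of the liver such as Alb at -1.82.

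When each dose was taken relative to its own air rats before the doses were compared, no gene passed in limma. In that comparison 215 genes had an unadjusted p under 0.05, fewer than the 615.3 of chance, and the lowest adjusted p was 1.00. Its standard error was also larger, at a median of 0.141 against 0.081 in the direct comparison, since 4 air rats per set enter it. For the 159 genes the median difference went from 0.33 to 0.05 in their direct direction, and the 95% interval held 0 for 153 of them (96.2%), close to the 98.3% of all genes. The 71 genes higher at 2 mg had a median of -0.02 in this comparison and the 88 lower ones 0.07 in their own direction. LOC503325 went from 1.26 to -0.26 (95% interval -1.03 to 0.50), Il1rn from 0.60 to -0.02 (-0.47 to 0.43) and Fchsd2 from -0.38 to 0.09 (-0.14 to 0.31). Mmp8 kept 0.29 of its 0.66 (-0.11 to 0.69) and Cd226 0.36 of 0.65 (-0.13 to 0.85). The direct difference lay inside this interval for Mmp8 and Cd226 and outside it for LOC503325, Il1rn and Fchsd2. These intervals are unadjusted, belong to genes chosen by their direct difference and rest on 4 air rats per set. They therefore do not settle whether the doses differ in these genes. For Il1rn the air difference was 1.19 in run 5, which holds air rat 2 of the 1 mg set, and 0.26, 0.50 and 0.51 in runs 6, 7 and 8. The direct and the air-corrected comparison share the 16 silica arrays. Against their own air rats, 0 genes passed at 2 mg (580 at an unadjusted p under 0.05) and 0 at 1 mg (313).

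**Figure D3:**
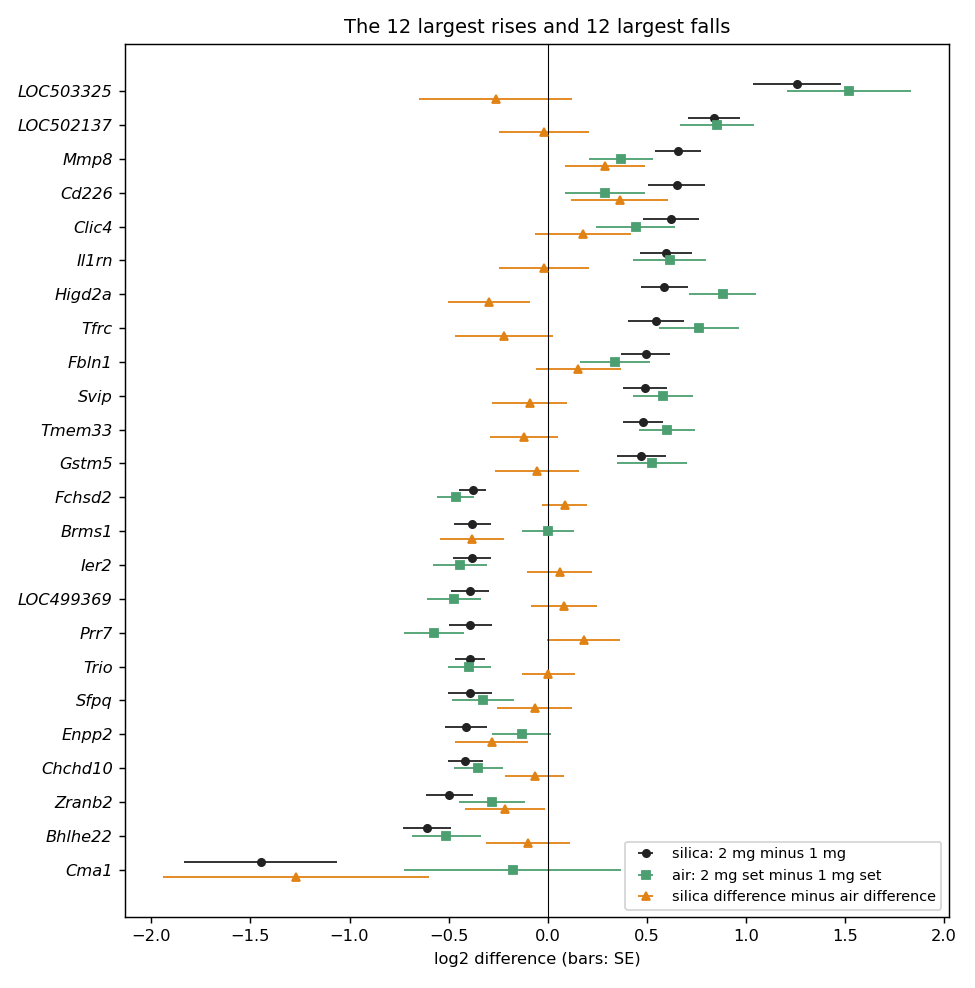
The 12 largest rises and 12 largest falls: log2 difference between the doses (circles), between the air rats of their sets (squares) and the former minus the latter (triangles), with SE as bars. Most triangles lie near 0, while Cma1 at -1.27 and Brms1 at -0.38 stay on the side of their direct difference. Cd226, Mmp8 and Enpp2 are among others that do so. LOC503325, Higd2a, Tfrc and Prr7 are among those whose triangles lie on the opposite side of 0.

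The 6 genes among the 159 with an unadjusted p under 0.05 relative to air were all lower at 2 mg, and they are named here after their values were seen. Nop16 and Rpl13a, which serve ribosome biogenesis and the large ribosomal subunit, had air-corrected differences of -0.31 (95% interval -0.54 to -0.07) and -0.25 (-0.49 to -0.01). Ahcy, which breaks down S-adenosylhomocysteine, stood at -0.27 (-0.50 to -0.05) and Nme2, a nucleoside diphosphate kinase, at -0.25. Brms1 stood at -0.38 (-0.70 to -0.06), and the last of the 6, the mast-cell tryptase Tpsb2, belongs to the next paragraph. Nop16 was 8.05, 8.09 and 8.23 in the 2 mg rats and 8.14, 8.38 and 8.66 in the 1 mg rats, and the air rats stood at 8.03 to 8.35 and at 8.07 to 8.40. Nop16 and Ahcy were the 2 genes whose air difference ran against the direct one, by 0.05 and 0.02. None of the 6 passed after adjustment in that comparison.

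A mast-cell protease gene gave the largest fall among genes that passed, and the fall was smallest when 1 mg rat 2 was left out. Cma1, the mast-cell chymase, was at 6.31, 10.2, 6.63, 7.98, 5.92, 5.28, 6.89 and 7.02 in 1 mg rats 1 to 8. In 2 mg rats 1 to 8 it was at 5.60, 5.53, 5.43, 5.54, 5.50, 6.6, 5.17 and 5.27. Rat 2 of the 1 mg group stood far above all others and rat 4 was next. Of these, rat 4 alone was among the 5 arrays with liver transcripts. The array of 1 mg rat 2 was kept, but 20 of the 24 liver genes were detected on it, with Alb at 5.98. The air rats ranged from 5.62 to 7.24 in the 2 mg set and from 5.91 to 7.31 in the 1 mg set, and of the 2 mg silica rats all but rat 6 lay below every air rat. Cma1 differed by -1.45 ± 0.39, 2.73-fold lower at 2 mg (adjusted p = 0.0362). Without 1 mg rat 2 the difference was -0.995 (adjusted p = 0.168) and without rat 4 it was -1.31 (adjusted p = 0.0791). Cma1 also did not pass without 1 mg rat 3 or 8, or without 2 mg rat 1, 2, 3, 4, 7 or 8. Without the 5 arrays with liver transcripts the difference was -1.40 (adjusted p = 0.130).

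Rats 2 and 4 of the 1 mg group were also the highest of that group for the other mast-cell protease genes. Cpa3, the mast-cell carboxypeptidase, was 8.66 in rat 2 and 6.59 in rat 4, with 5.02 to 6.09 in the other 1 mg rats and 4.86 to 5.66 in the 2 mg rats. It differed by -0.86 ± 0.27 and did not pass (adjusted p = 0.0837). Cpa3 belongs to the list of eosinophil, basophil and mast-cell genes, which holds neither Cma1 nor Tpsb2. Of its 12 measured genes 9 lay above 0 and 3 below, with a median of 0.06. Tpsb2 was 6.64 in rat 2 and 5.55 in rat 4, and these were the 2 arrays of the 16 on which it was detected. It passed in the direct comparison (adjusted p = 0.0332) but not without rat 2 (adjusted p = 0.164). Selp, P-selectin of platelets and endothelium, also stood out in rat 2, at 7.93 against 5.57 to 6.04 in the other 1 mg rats. Whether mast-cell RNA entered these samples from another tissue was not tested.

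**Figure D4:**
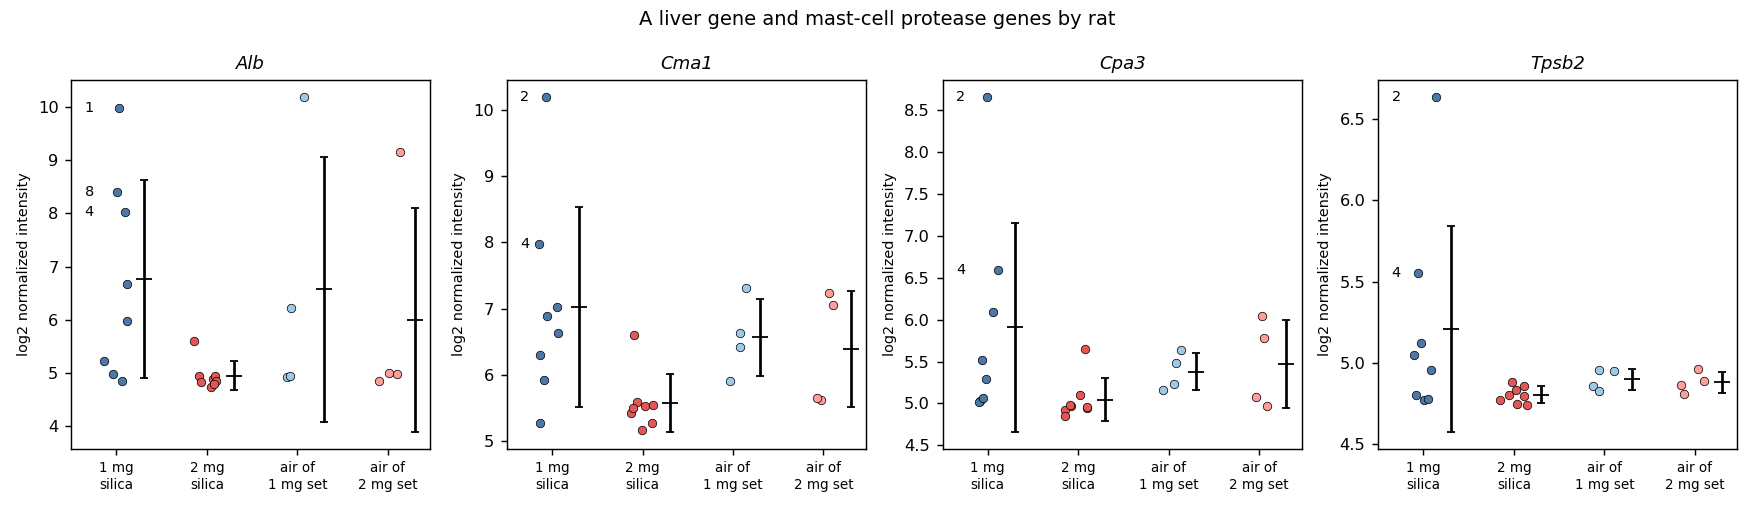
Levels of the liver gene Alb and of the mast-cell protease genes Cma1, Cpa3 and Tpsb2 in each rat (points; log2 normalized intensity, vertical axes not starting at 0), with mean ± SD beside each group (n = 8 silica rats, n = 4 air rats). Numbers mark 1 mg rats: Alb is highest in rats 1, 8 and 4, at 9.97, 8.40 and 8.03, and the mast-cell genes in rats 2 and 4, as for Cma1 at 10.2 and 7.98.

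Among lists of blood-cell genes, T-cell genes held the most calls. Of 19 measured T-cell genes 4 fell (21.1%, against 0.715% of all genes called lower), and 18 lay below 0, with a median of -0.23 against 0.00 over all genes. Cd3e, a chain of the T-cell receptor complex, was 9.90, 10.12 and 10.27 in the 2 mg rats and 10.28, 10.43 and 10.60 in the 1 mg rats. These groups did not overlap, and Cd3e fell by 0.33 ± 0.08 (adjusted p = 0.0150). Lat, the adaptor that relays T-cell receptor signals, fell by 0.28 ± 0.06 (adjusted p = 0.0135) and Cd8b, a co-receptor of cytotoxic T cells, by 0.30 ± 0.08 (adjusted p = 0.0371). Cd6, a T-cell adhesion receptor named here after its value was seen, fell by 0.23 ± 0.06 (adjusted p = 0.0371). In bulk blood, fewer T cells and less of these RNAs per cell cannot be told apart. The mean level of the list per rat was 9.09 to 9.28 in the 2 mg rats and 9.24 to 9.50 in the 1 mg rats. It was 9.11 to 9.38 in the air rats of the 2 mg set and 9.17 to 9.46 in those of the 1 mg set. The median over the list was -0.15 between the air groups and -0.07 relative to air, and 0 of its genes passed in either comparison. Without the 5 arrays with liver transcripts 1 of the 19 passed, with a median of -0.22, and Cd3e stood at -0.33 (adjusted p = 0.0633). With arrays scaled to one median in place of quantile normalization none of the 4 genes passed. The median of the list was then -0.03 between the doses and 0.20 between the air groups. This scaling raised most lists and moved the median of all genes to 0.07 between the doses. List medians then ran from -0.03 (T cell) to 0.41 (neutrophil) between the doses. Between the air groups they ran from 0.03 (platelet) to 0.50 (interferon stimulated).

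Neutrophil genes lay mostly on the other side. Of 21 measured genes 1 rose, Mmp8 (4.76%, against 0.577% of all genes called higher), and 19 lay above 0 with a median of 0.24. Camp, the cathelicidin of granules, differed by 0.34 ± 0.11 (adjusted p = 0.125) and Mmp9, gelatinase B, by 0.30 ± 0.11 (adjusted p = 0.137). The mean level of the list per rat was 7.33 to 8.03 in the 2 mg rats and 7.41 to 7.77 in the 1 mg rats, and 2 mg rat 8, at 7.33, was the one 2 mg rat below every 1 mg rat, the other 7 lying at 7.63 to 8.03. The median was 0.06 between the air groups and 0.10 relative to air. Its size depended on the processing: it was 0.06 between the doses with stock neqc, 0.15 in the authors' deposited values, 0.17 without a filter and 0.41 with median scaling. Monocyte genes had a median of 0.20 over 13 measured genes, 12 above 0, and none passed (median 0.08 with stock neqc). Their median was 0.18 between the air groups and -0.02 relative to air. In the B-cell list 0 of 14 genes passed (median -0.08, turning to 0.05 with median scaling, which moved that of all genes to 0.07). In the list of NK and cytotoxic cells 0 of 15 passed (median 0.06, and 0.12 between the air groups).

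Red-cell genes rose in 2 of 18 cases (11.1%, against 0.577% of all genes called higher), with Tfrc as above and Slc4a1, the band 3 anion exchanger, at 0.40 ± 0.11 (adjusted p = 0.0364). Slc4a1 differed by 0.40 ± 0.15 between the air groups as well, and relative to air it stood at 0.00 (95% interval -0.37 to 0.38). The median of the red-cell list was 0.12 between the doses (0.06 with stock neqc) and 0.09 between the air groups. None of its genes passed with the liver-gene mean as a covariate, with the 24 low-dose arrays alone, without a filter or with median scaling. Platelet genes differed in sign between the comparisons. None of 11 passed, and their median was 0.15 between the doses, -0.34 between the air groups and 0.46 relative to air. The mean platelet level was 10.83, 10.10, 10.91 and 9.33 in air rats 1 to 4 of the 2 mg set. In those of the 1 mg set it was 10.78, 10.23, 10.79 and 10.74, so air rats 1 and 3 of the 2 mg set lay above all of them. The silica rats lay at 10.47 to 10.78 at 2 mg and at 10.25 to 10.82 at 1 mg. The spread of the 4 air rats of the 2 mg set was thus wider than that of either silica group.

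Lists of interferon response, inflammation and stress held few calls. Of 27 measured interferon-stimulated genes none passed, and their median was 0.02 between the doses but 0.23 between the air groups. The latter was 0.09 with stock neqc and 0.15 without the 5 arrays with liver transcripts. The mean level of that list was 7.96 to 8.40 at 2 mg and 7.99 to 8.46 at 1 mg, and it was 8.07 to 8.44 and 7.83 to 8.00 in the respective air rats. The air groups were therefore apart where the doses were not. Of 21 inflammatory mediators 1 rose, Il1rn (4.76%, against 0.577% of all genes called higher, with a list median of 0.07). In the oxidative stress and NRF2 list 2 of 23 rose (8.70%, against the same 0.577%). Txn1, thioredoxin, was 13.27, 13.40 and 13.52 in the 2 mg rats and 12.99, 13.09 and 13.40 in the 1 mg rats, and rose by 0.25 ± 0.05 (adjusted p = 0.00374), with 0.24 ± 0.07 between the air groups. Nqo1, the quinone reductase, rose by 0.33 ± 0.09 (adjusted p = 0.0479), but passed in 3 of 16 refits that each left out 1 silica rat. Of 10 measured glucocorticoid-responsive genes none passed, and Klf9 came nearest at -0.24 ± 0.07 (adjusted p = 0.0569).

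Genes of growth and protein synthesis divided. Of 21 cell-cycle genes 1 rose (4.76%, against 0.577% of all genes called higher). It was Rrm2, a subunit of ribonucleotide reductase (0.46 ± 0.10, adjusted p = 0.0128), which differed by 0.57 ± 0.15 between the air groups. The median of that list was 0.19 between the doses (0.03 with stock neqc) and 0.11 between the air groups. Of 38 cytosolic ribosomal protein genes 3 fell (7.89%, against 0.715% of all genes called lower). Rpl14 fell by 0.33 ± 0.07 (adjusted p = 0.00393), Rplp1 by 0.21 ± 0.05 (adjusted p = 0.0108) and Rps3 by 0.27 ± 0.08 (adjusted p = 0.0470). The list's median was -0.07, and it turned to 0.11 when arrays were scaled to one median, with none of the 3 passing. The same scaling moved the median of all genes from 0.00 to 0.07. Of 16 heat shock and chaperone genes 15 lay below 0 and 1 fell (6.25%, against 0.715% of all genes called lower). It was Hspa9, the mitochondrial Hsp70 (-0.30 ± 0.07, adjusted p = 0.00855), which did not pass with the liver-gene mean as a covariate. The median of this list, -0.12, turned to 0.04 under the same scaling. It was -0.02 between the air groups and -0.09 relative to air, where 14 genes lay below 0 and 2 above. Immediate early genes are those that cells switch on within minutes of a stimulus. They gave 1 call of 18 (5.56%, against 0.715% of all genes called lower), Ier2 as above, with a median of 0.00. Among apoptosis genes 1 of 20 rose (5%, against 0.577% of all genes called higher). It was Mdm2, the ubiquitin ligase of p53 (0.23 ± 0.05, adjusted p = 0.00494). No gene passed in the lists for MHC class I, MHC class II, mitochondrial respiration, matrix and TGF-beta, lysosome, or eosinophils, basophils and mast cells, the last of which includes Cpa3 but not Cma1 or Tpsb2.

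**Figure D5:**
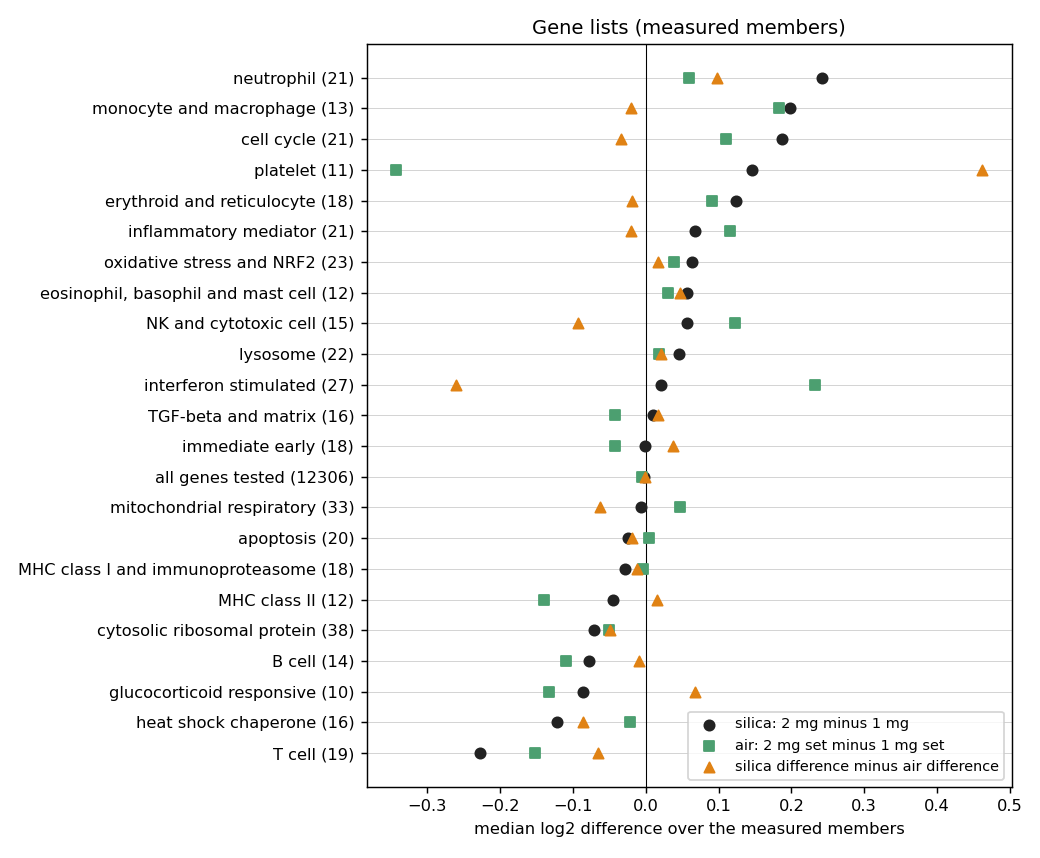
Median log2 difference over the measured members of each gene list and over all genes tested (number of genes in brackets), between the doses (circles), between the air rats of their sets (squares) and between the doses relative to air (triangles). With the processing used here neutrophil genes have the highest direct median at 0.24 and T-cell genes the lowest at -0.23. With stock neqc the neutrophil median, 0.06, lies below the platelet median, 0.16. The platelet and interferon squares, at -0.34 and 0.23, lie away from their circles. With stock neqc the interferon median between the air groups is 0.09.

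The 2 genes that passed at 15 mg/m3 against air at week 0 (0.0163%), both higher, did not separate the lower doses. Ldhc, the testis-type lactate dehydrogenase, was 6.21, 6.89 and 7.18 in the 2 mg rats and 6.33, 6.56 and 6.80 in the 1 mg rats. It differed by 0.25 ± 0.09 (adjusted p = 0.173). Against their own air rats it stood at 0.54 for 2 mg (adjusted p = 0.147), 0.36 for 1 mg and 0.65 for 15 mg (adjusted p = 0.00133). Fcgr2al1, an Fc receptor family gene, was 11.10, 11.41 and 11.80 at 2 mg and 11.25, 11.36 and 11.62 at 1 mg, a difference of 0.04 ± 0.09 (adjusted p = 0.941). Of the 159 genes, 102 (64.2%) differed at 15 mg/m3 from air in the direction of their 2 mg minus 1 mg difference, against 52.1% of all genes, with a median of 0.04 in that direction.

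The number of genes called depended on single rats. The count of 159 became 65 and 81 without 1 mg rats 3 and 5, and 100, 73, 66, 97, 105 and 91 without 2 mg rats 1, 2, 3, 4, 6 and 7. Of the 42 named genes that passed, 20 did so in all 16 refits that left out 1 silica rat: LOC503325, LOC502137, Mmp8, Cd226, Clic4, Il1rn, Higd2a, Svip, Tmem33, Bhlhe22, Chchd10, Trio, Fchsd2, Cd3e, Hspa9, Rrm2, Rpl14, Txn1, Mdm2 and Rpl13a. Without the 5 arrays with liver transcripts all but Svip, Cd3e, Hspa9 and Rrm2 of these passed too, with LOC503325 at 1.38, LOC502137 at 0.90, Mmp8 at 0.63, Il1rn at 0.61 and Fchsd2 at -0.42. In all, 19 of 42 named genes that had passed did so without these arrays. Tfrc, Fbln1, Svip, Gstm5, Zranb2, Enpp2, Sfpq, Prr7, LOC499369, Ier2, Brms1, Cd3e, Cd8b, Cd6, Hspa9, Rrm2, Rps3, Nqo1, Ahcy, Nme2 and Nop16 did not, nor did Cma1 and Tpsb2. The air comparison gave 14 genes without them, 8 of them the same, and the comparison relative to air 0. In the refits without 1 silica rat, Tfrc passed in 8, Gstm5 and Cd6 in 7 each, Cma1 and Slc4a1 in 6, Ahcy in 5, Cd8b, Prr7 and Rps3 in 4, and Sfpq and Nqo1 in 3. The other 11 of the 42 passed in 9 to 15. The air comparison rested on single rats as well. From 14, its count went to 7, 4 and 5 when air rats 1, 2 and 3 of the 1 mg set were left out in turn. It went to 99, 9 and 5 when air rats 2, 3 and 4 of the 2 mg set were. Between 150 and 158 of the 159 genes kept the direction of the silica rats in the air rats when 1 air rat was left out. Pearson's r over all genes then ranged from 0.26, without air rat 2 of the 1 mg set, to 0.66. Within the 4 column runs, the doses differed the same way in all 4 for 156 of the 159 genes (98.1%, against 27.7% of all genes), which the choice of these genes favours.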

How the data were processed

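Members, gene lists and tests were chosen with earlier results of these data known. The deposited non-normalized table gives each array's probe intensity (BeadStudio, according to the submitters' processing notes). Per the file headers it also gives a p-value of detection. Its 192 unused per-sample columns were not analysed. The authors' deposited log2 values, for which those notes name limma and lumi, served as an alternative, and they correlated with the log2 intensity of their own array at 0.992 or more. Their exact transform, builds and versions are not given in the sources used here.

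In R 4.3.3 with limma 3.58.1, intensities of all 96 arrays were background-corrected by normexp (offset 16), with the background inferred from detection p-values, quantile normalized and taken to log2. The 626 rows whose detection p lay off its grid of 825 steps were kept out of the background estimate only, a change to limma's neqc made after the data were seen. Rows detected (p under 0.05) on at least 4 arrays were kept, 12368 of 21792, and the brightest row of a gene stood for it, leaving 12306 genes. Of all rows, 16866 were named through Entrez IDs and 144 through symbols, and 4782 kept the name in the file.

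One mean for each of 16 groups was fitted, with moderated tests and Benjamini-Hochberg adjustment, and calls had an adjusted p under 0.05. Detected rows per array were compared by exact permutation over 12870 splits (scipy 1.17.1). The genes named are the 12 largest rises and falls among passing genes detected on at least 4 of 8 arrays of a dose, the 3 of lowest p in each of 22 gene lists, and Ldhc and Fcgr2al1. Exceptions are stated where they occur. A list of 30 liver genes and 2 alternatives built on it were added after the data were seen. Scripts were tested on simulated data. Replicate numbers did not pair the samples. The labels give 1 array per rat, and the number of rats limits the precision. No sequences are printed, since none bears on a comparison here. Alternatives were background, normalization, filter, probe rows, arrays fitted, replicate and column-run blocks, detected rows as a covariate, array weights and leaving out each array.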

Additional observations from a re-analysis of the deposited data

Results flagged for a closer look

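A value is listed here when the highest or lowest rat of a group lay far from the rest of its group, by Dixon's test. It was applied to 380 groups of named genes and array measures and marked 26, where chance marks about 1 in 20, or 19 here. Air rat 2 of the 1 mg set stood apart in 4 genes: Cd226 was low at 6.79 and P2ry12, the platelet ADP receptor, low at 8.45, while Chchd10 was high at 10.00 and Tsc22d3, a glucocorticoid-induced gene, high at 11.63. Air rat 1 of that set was low for Mcm3 at 6.45 and for Nme2 at 9.56 and high for Nqo1 at 8.29, and air rat 3 was low for Gzma, granzyme A, at 9.46. In the 2 mg set, air rat 2 was high for Enpp2 at 7.01 and for Cd8b at 8.72, and air rat 4 was low for Prr7 at 5.24.

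Among the 1 mg silica rats, rat 2 was high for Cpa3 at 8.66, for Tpsb2 at 6.64 and for Selp at 7.93. Rat 4 was low for Tmem33 at 7.65 and high for P2ry12 at 9.18, and rat 7 was low for Enpp2 at 6.38 and for Ahcy at 8.05. Among the 2 mg silica rats, rat 6 was high for Cma1 at 6.6 and for Cpa3 at 5.66, the same mast-cell genes as above at a lower level. Rat 2 was low for Tap2, a peptide transporter, at 5.45 and for Rplp1 at 13.80. Rat 1 was low for Rpl13a at 10.69, rat 4 for Ndufa8, a subunit of respiratory complex I, at 7.89, and rat 8 for Cd37 at 11.15, while rat 7 was high for Tgfbi at 7.85. No cause was tested for any of these values.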

How the results depend on the processing

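For the 2 mg against 1 mg comparison, the count of 159 genes was 178 with stock neqc, 165 in the authors' deposited values, 207 with a stricter filter on dim probes, 165 with each probe row on its own, 228 with the 16 silica arrays alone and 196 with detected rows as a covariate. It was 3 (3 higher, 0 lower, against 71 and 88) with median scaling, 105 without a filter, 91 with the 24 low-dose arrays alone, 329 with the column run as a block and 988 with array weights. With the replicate block it was 163. In alternatives added after the data were seen it was 66 with the 5 arrays of high liver-gene level left out and 43 with the liver-gene mean as a covariate. The replicate numbers shared by both doses did not pair the rats: the correlation of their deviations ran from -0.13 to 0.29, 2 of 8 pairs exceeded 0.1, and in 1 of 8 the best match was the same number. Leaving out 1 array gave 65 to 199. The comparison relative to air had 0 calls under every alternative run, including the 24 refits without 1 array. Between air groups the count of 14 became 3 with median scaling, 47 with the column run as a block and 62 with array weights, and 4 to 99 without 1 array. In each alternative that gave both comparisons, 96.1% to 100% of the genes called directly had the same sign in the air rats. The cause of these changes in count was not tested, except that fewer or more genes tested and fewer arrays are part of some alternatives.

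Median scaling moved the median of all genes to 0.07 and turned the sign of 7 named genes that had not passed: Mx1 (0.0489), RT1-Ba (0.00157), RT1-Db1 (0.0698), Btg2 (0.107), Hspd1 (0.00627), Ndufa8 (0.0170) and Smad4 (0.102). Of 42 named genes that passed, 3 still passed under it, LOC503325, LOC502137 and Higd2a. Of the other values of named genes, 1140 kept their direction and side of the threshold, 132 no longer passed and 35 passed newly. The difference in detected rows was -216.25 at a detection p under 0.01 (exact permutation p = 0.0954) and -184 to -38.6 without 1 array.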
